A study of Mus musculus with 12 samples.

Results

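Bone marrow derived macrophages (BMDMs) given conditioned medium of NBT3L cells were compared with BMDMs given no conditioned medium, both without an inhibitor. NBT3L is a mouse neuroblastoma line whose MYCN gene is not amplified. The comparison rested on 4 of 12 libraries, SJ5 and SJ6 (NBT3L TCM, where TCM is tumor conditioned medium) against SJ1 and SJ2 (NS, no TCM). Its genes were the 16281 of 54232 that had at least 10 counts in at least 2 of the 12 libraries. The BMDMs of all groups came from wild-type C57BL/6 mice and had been cultured for 5 days before 24 h of incubation. The other groups, also of 2 libraries each, were R788 alone, NBT3L TCM + R788, NB9464 TCM (medium of a MYCN-amplified mouse neuroblastoma line) and NB9464 TCM + R788. R788 (fostamatinib), an inhibitor of the kinase Syk, was used at 500 nM. The study asked whether Syk promotes the programming of macrophages in medium of neuroblastoma cells, and the text of its paper describes NB9464 TCM only. How NBT3L TCM was prepared and which medium the NS cells received were not given in the sources used here, and NB9464 TCM was serum-free DMEM. The effects of tumor factors and of any difference in base medium, serum or macrophage colony stimulating factor cannot be told apart in these libraries. Nothing stated whether the libraries of a group came from separate mice, so the p-values measure the spread between these libraries, which may be technical.

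Macrophages sense microbial products, damaged cells and cytokines through surface and endosomal receptors, many of which signal to the transcription factor NF-kB. NF-kB in turn drives genes of cytokines, chemokines and its own inhibitors. In tissues, macrophages also clear dying cells, store and recycle iron, remodel matrix and present antigen, and tumor-associated macrophages are known for mixing these programs. In culture they divide in response to macrophage colony stimulating factor.

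Total counts in the 4 libraries were between 44977847 and 51519976, with 18077 to 18343 genes detected and 0.693% to 0.737% of counts from mitochondrial genes. The 8 macrophage markers were detected in every library, with a summed level of 71480 and 71720 TPM (counts per gene length, scaled to a fixed total) in NS and 71230 and 76640 in NBT3L TCM, most of it Lyz2. Of 14 markers of neuroblastoma or sympathetic neurons, 11 and 12 were at 0 counts in NS and 4 and 5 in NBT3L TCM. Their summed level was 3.12 and 2.85 TPM in NS and 6.05 and 4.91 TPM in NBT3L TCM, and most of it was Elavl4. Dbh, an enzyme of noradrenaline synthesis, had 0 counts in both NS libraries and 16 and 20 counts in NBT3L TCM. Th, Stmn2, Chga and Ddc were at 0 in all 4 libraries. The part of tumor cell RNA in the results was not tested. Markers of lymphocytes, dendritic cells and mast cells summed to less than 3 TPM in each library. Among the other libraries, SJ8 (R788) had the fewest detected genes, 16149, and it entered the results with R788 and the common estimate of spread.

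Of the 16281 genes, 5755 (35.3%) were called, meaning a DESeq2 adjusted p under 0.05. Of these, 2938 (18.0% of the genes tested) were higher and 2817 (17.3%) lower in NBT3L TCM than in NS. A change of at least 2-fold was found for 1017 higher genes (6.25%) and 940 lower genes (5.77%). The median log2 fold change over all genes was 0.00, and -0.02 with TMM scaling. Scaling the libraries to a common size places the typical gene near this value, so it is not a result. In bulk RNA such as this, fewer cells of a type and less RNA per cell cannot be told apart. The 2-fold higher genes took 5.84% and 6.01% of the counts in NS and 20% and 19.8% in NBT3L TCM. The 2-fold lower genes took 6.10% and 6.05% in NS and 1.75% and 1.76% in NBT3L TCM. The share of genes called was 9.40% under a mean of 100 normalized counts, 36.5% from 100 to 1000 and 55.5% from 1000. Without library SJ8, a choice made after seeing the data, 6180 genes were called. With 2 libraries against 2, an exact permutation test of a single gene could not go below p = 0.333, and the adjusted p-values depend on how DESeq2 models variance across genes.

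**Figure D1:**
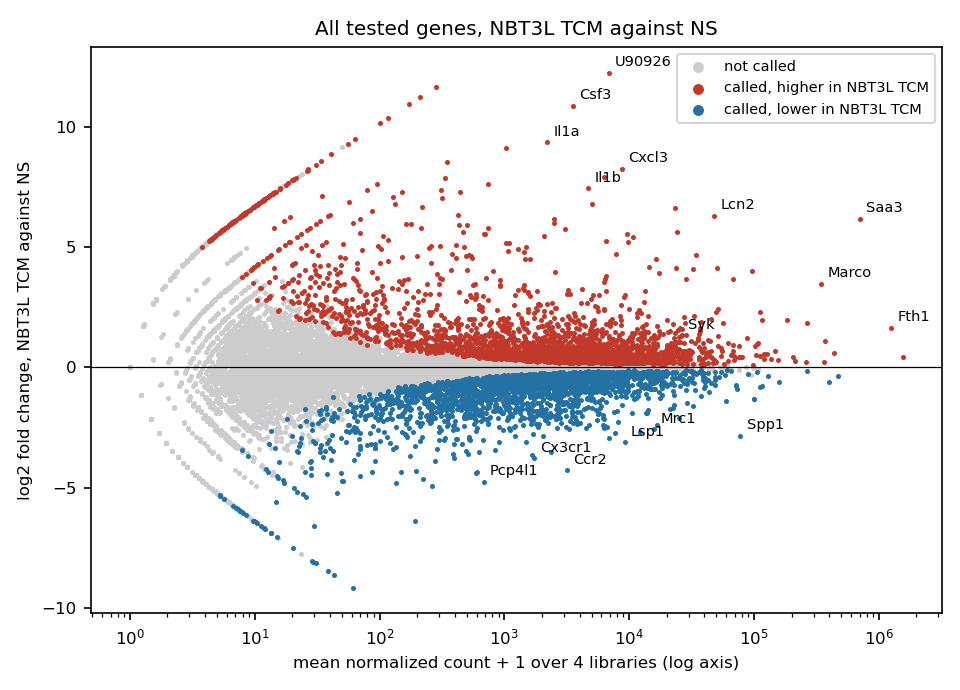
Each point is a tested gene, with its mean normalized count over the 4 libraries plus 1 on the horizontal log axis and its log2 fold change of NBT3L TCM against NS on the vertical axis. Red points (2938) were called higher, blue points (2817) called lower and grey points not called. U90926 at 12.24 was the largest rise and Pcp4l1 at -4.74 the largest fall among called genes averaging 500 normalized counts or more. This ranking left out genes with Gm or Rik names or with overlap of the NS and NBT3L TCM libraries.

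Gene values are normalized counts (counts divided by the size factor of the library), given for SJ1 and SJ2 (NS) and then SJ5 and SJ6 (NBT3L TCM), and log2 fold changes carry their standard error (SE). Positions are on GRCm38 (mm10). Each group has n = 2. The 12 largest rises, and the 12 largest falls below, were picked among called genes averaging 500 normalized counts or more. Genes with Gm or Rik names, or with overlap between the 2 groups, were left out. The rises included secreted inflammatory proteins. U90926 (chromosome 5, 92209893 to 92215408), annotated as protein coding, had 0 and 5.69 in NS and 13750 and 13680 in NBT3L TCM, a log2 fold change of 12.24 ± 0.59. Csf3 (chromosome 11, 98701263 to 98703629), the granulocyte colony stimulating factor, had 1.88 and 5.69 and then 7308 and 6902 (10.88 ± 0.52). Il1a (chromosome 2, 129299610 to 129309972), an interleukin released by damaged or activated cells, had 1.88 and 11.4 and then 4446 and 4322 (9.37 ± 0.40). In each of these the NS libraries were close to 0 and the NBT3L TCM libraries were alike. The chemokine Cxcl5 rose by 9.10 ± 0.54, the chemokine Cxcl3 by 8.26 ± 0.40 and the interleukin Il1b by 7.43 ± 0.17 on the log2 scale. Cd38, an enzyme that consumes NAD, had 78.9 and 24.6 in NS and 12180 and 12730 in NBT3L TCM (7.91 ± 0.42). Lox, an enzyme that crosslinks collagen, had 479.9 and 458 and then 46060 and 46940 (6.63 ± 0.09). Draxin, a guide of growing axons (7.60 ± 0.99), Serpinb2 (6.80 ± 0.35), Lcn2 (6.31 ± 0.07) and Saa3 (6.18 ± 0.15) completed the 12 largest rises. All 12 had adjusted p-values of 2.17e-13 (Draxin) or lower by DESeq2.

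The 12 largest falls included receptors that guide monocyte movement. Ccr2 (chromosome 9, 124101950 to 124113557), the receptor that brings monocytes into tissues, had 6189 and 5835 in NS and 299.5 and 326 in NBT3L TCM (-4.26 ± 0.12, DESeq2 adjusted p = 7.88e-293). Cxcr4, the receptor of CXCL12, had 1099 and 1144 and then 52.0 and 56.3 (-4.37 ± 0.27). Cx3cr1, the fractalkine receptor, had 3349 and 3099 and then 254 and 224 (-3.76 ± 0.15). The NS libraries of these receptors lay at least 10 times above the NBT3L TCM libraries. Cd5l, a secreted protein of resident macrophages, had 3053 and 3120 and then 271 and 229 (-3.63 ± 0.16). Lsp1, an actin-binding protein of leukocytes, had 16280 and 16830 and then 1827 and 1987 (-3.12 ± 0.07). The other members of the 12 largest falls were Pcp4l1 (-4.74 ± 0.39), the sialyltransferase St6gal1 (-4.36 ± 0.26), the pseudogene Nxpe1-ps (-3.59 ± 0.26), the G protein regulator Rgs2 (-3.53 ± 0.14), the chromatin protein Hmga2 (-3.50 ± 0.31), the filament protein Nes (-3.41 ± 0.30) and the carbonyl reductase Cbr2 (-3.11 ± 0.20). Whether counting used the strand was not stated. Exons of Il1a, Il1b, Cx3cr1, St6gal1 and Hmga2, and of Edn1, Thbs1, Pdgfa, Cxcl10, Nfkb2, Tlr3, Slc7a2, Ptgs1, Irf7, Gbp2, H2-Q4, Plk1, Tk1, Slc2a1, Hif1a, Manf, Idi1, Pltp, Gas6, Fcgr2b, Ctsz, Gab1 and Mpo, described further on, overlap a gene on the opposite strand. Those of Serpinb2, Spp1, Cd74 and Eef1a1 overlap a gene on their own strand, so reads from the partners cannot be told apart. Genes with near-identical copies, such as Saa3, Fth1, Eef1a1, the Ifi200 family and the H2 and ribosomal protein genes, are uncertain in the same way.

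**Figure D2:**
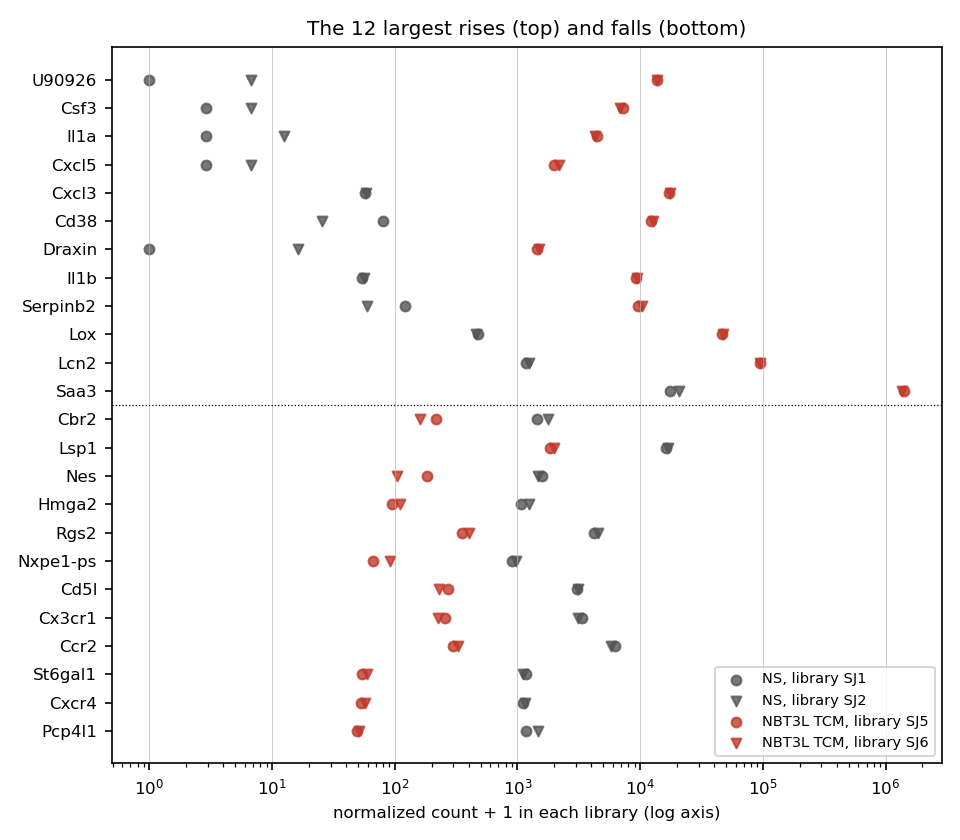
Normalized counts plus 1 of the 12 largest rises (above the dotted line) and the 12 largest falls (below it) on a log axis, with a point for each library (grey for NS, red for NBT3L TCM). In all 24 genes the 2 libraries of a group lie on the same side of both libraries of the other group, which was part of how these genes were chosen. Such separation was found in 10882 (66.8%) of the 16281 genes tested and in 5751 of the 5755 called genes.

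The counts of the gene lists below stand beside 18.0% called higher and 17.3% called lower over all genes tested. Of genes averaging 1000 normalized counts or more, 55.5% were called. Among 17 tested interleukin and TNF family genes, 12 were higher and 2 lower, with a median log2 fold change of 1.81 beside 0.00 over all genes. Il12a, a subunit of interleukin 12, had 0 counts in both NS libraries and 528 and 595 in NBT3L TCM, at least 198-fold higher (DESeq2 adjusted p = 1.39e-14). Il12b, the other subunit, had 5.63 and 0 and then 625 and 702 (7.87 ± 0.62). Il6, an inducer of the acute phase, had 0 and 3.79 and then 710.4 and 671 (8.51 ± 0.76). These genes were near 0 in NS and above 500 in NBT3L TCM. Tnf started higher, at 2781 and 3037, and had 10210 and 10140 in NBT3L TCM (1.81 ± 0.07). The rises included genes of proteins that restrain inflammation. Il1rn, the antagonist of the interleukin 1 receptor, rose from 1975 and 2114 to 16220 and 16840 (3.02 ± 0.11), and Il10 from 179 and 169 to 509.9 and 442 (1.45 ± 0.19). Il15 (1073 and 1126, then 391 and 377) and Il18 (705 and 679, then 360.2 and 334), which act on lymphocytes, fell, with log2 fold changes of -1.52 ± 0.19 and -1.0 ± 0.20.

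The 18 colony stimulating and growth factors were divided, with 6 higher, 7 lower and a median of 0.04, whose sign turned to -0.01 with shrunken fold changes. Edn1, the vessel-constricting peptide endothelin 1, had 0 counts in both NS libraries and 332 and 352 in NBT3L TCM, at least 121-fold higher. Thbs1, the matrix protein thrombospondin 1, had 4140 and 4068 and then 52810 and 53170 (3.69 ± 0.06). In the other direction, Spp1 (osteopontin) had 135300 and 137100 and then 19340 and 18890 (-2.83 ± 0.05), Igf1 had 21520 and 21670 and then 5786 and 5905 (-1.89 ± 0.06), and Pdgfa had 777 and 654 and then 229 and 229 (-1.64 ± 0.23). Spp1 and Igf1 were thus abundant transcripts of untreated BMDMs that stood several times lower in NBT3L TCM.

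More chemokine genes were higher than lower. Of 11 tested CC chemokines, 7 were higher and 0 lower by DESeq2 and by edgeR (1 lower at an unadjusted p under 0.05), with a median of 1.66. Fitting the 4 libraries alone gave 8 higher and 1 lower. Ccl3, a ligand of CCR1, had 2025 and 2208 and then 31740 and 33180 (3.94 ± 0.06). Ccl4 had 1923 and 1980 and then 10040 and 11160 (2.44 ± 0.10), and Ccl5 had 1485 and 1606 and then 9144 and 9188 (2.57 ± 0.23). Ccl2, the ligand of CCR2, was already at 23260 and 25790 in NS and reached 89840 and 88610 (1.86 ± 0.09). Of 13 CXC and CX3C chemokines, 7 were higher and 1 lower, with a median of 0.36. Without SJ2 the median was 1.05, with 7 higher and 0 lower, and it was 0.97 for genes averaging 50 counts or more. Cxcl1, a ligand of the neutrophil receptor CXCR2, had 115 and 108 and then 5900 and 6104 (5.75 ± 0.13). Cxcl3 had 56.4 and 56.9 and then 17020 and 17600, Cxcl5 had 1.88 and 5.69 and then 1978 and 2159, and Cxcl2 had 565 and 576 and then 15020 and 15200. Cxcl1, Cxcl2, Cxcl3 and Cxcl5, all ligands of CXCR2, were each more than 20 times higher in both NBT3L TCM libraries than in either NS library. Cxcl10, a chemokine induced by interferon, was not called, with 664 and 709 in NS and 666 and 736 in NBT3L TCM (log2 fold change 0.03 ± 0.28, DESeq2 adjusted p = 0.958). Cxcl14 fell, 199 and 303 against 134 and 96.3 (-1.13 ± 0.38), a call that was lost without library SJ2 or without library SJ6 (DESeq2 adjusted p = 0.213 and 0.139).

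Promoters of 4 genes that rose are shown because each holds a match to the NF-kB consensus close to the start of the gene. They were chosen after their values were seen. The consensus was searched on both strands in RefSeq promoters of GRCm38.p6, 250 bases before to 50 after each start, and its matches are in capitals. Cxcl1, Cxcl3 and Il6 encode secreted proteins described above, and Sod2 is mitochondrial superoxide dismutase.
Cxcl1, chr5:90890995-90891294, plus strand: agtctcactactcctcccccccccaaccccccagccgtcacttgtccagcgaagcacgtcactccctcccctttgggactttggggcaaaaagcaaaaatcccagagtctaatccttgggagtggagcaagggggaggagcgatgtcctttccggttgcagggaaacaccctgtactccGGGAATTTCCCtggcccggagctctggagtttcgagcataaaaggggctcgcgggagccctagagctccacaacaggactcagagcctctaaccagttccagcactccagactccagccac
Cxcl3, chr5:90785851-90786150, plus strand: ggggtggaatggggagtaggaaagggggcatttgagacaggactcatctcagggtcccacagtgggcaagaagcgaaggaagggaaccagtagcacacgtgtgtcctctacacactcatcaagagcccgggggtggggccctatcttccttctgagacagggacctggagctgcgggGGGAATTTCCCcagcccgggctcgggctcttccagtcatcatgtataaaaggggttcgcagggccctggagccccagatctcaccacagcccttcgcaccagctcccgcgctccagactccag
Il6, chr5:30012864-30013163, plus strand: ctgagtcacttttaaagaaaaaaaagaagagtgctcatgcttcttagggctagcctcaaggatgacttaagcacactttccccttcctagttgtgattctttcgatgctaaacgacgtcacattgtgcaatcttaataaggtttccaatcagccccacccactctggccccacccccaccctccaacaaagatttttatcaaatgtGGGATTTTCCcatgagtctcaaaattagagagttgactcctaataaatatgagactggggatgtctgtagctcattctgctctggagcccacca
Sod2, chr17:13007589-13007888, plus strand: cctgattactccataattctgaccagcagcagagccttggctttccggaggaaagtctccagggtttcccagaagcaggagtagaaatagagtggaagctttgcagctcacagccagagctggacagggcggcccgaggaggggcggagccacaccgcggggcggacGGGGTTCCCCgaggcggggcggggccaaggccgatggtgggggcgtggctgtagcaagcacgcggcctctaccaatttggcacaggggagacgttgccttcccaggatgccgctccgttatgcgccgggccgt
The capitals begin 71 bases before the start in Cxcl1, 73 in Cxcl3, 44 in Il6 and 83 in Sod2. In Cxcl1 and Cxcl3 the 11 capitals hold overlapping matches. The consensus was found in 81 of 963 promoters (8.41%) of the 2-fold higher genes, 44 of 891 (4.94%) of the 2-fold lower genes, 737 of 14319 (5.15%) of all genes tested and 1480 of 32851 (4.51%) of all promoters. TATAAA, searched as a second motif, was in 11.4%, 10.3%, 7.72% and 13.6% of the same sets. Of the 12 largest rises, 9 had a promoter in the table and 1 of these, Cxcl3, held the consensus. A match is a stretch of letters and was not tested as a binding site.

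Receptors for these ligands moved both ways: 12 of 33 chemokine and cytokine receptors were higher and 13 lower, with a median of -0.04 that was -0.11 without SJ5, -0.08 without SJ6 and -0.07 without SJ2. Il1r1, the signaling receptor of interleukin 1, had 22.5 and 24.6 and then 289.6 and 289 (3.62 ± 0.36). Tnfrsf1b, a TNF receptor, had 17240 and 16390 and then 82590 and 83050 (2.30 ± 0.04), and Csf3r, the receptor of the Csf3 product, had 1846 and 1409 and then 6685 and 7146 (2.09 ± 0.10). The 3 largest falls of the list were Ccr2, Cxcr4 and Cx3cr1.

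Of 23 NF-kB factors and feedback inhibitors, 18 were higher and 0 lower by DESeq2 (18 and 0 by edgeR, 19 and 0 at an unadjusted p under 0.05), with a median of 1.05. The largest rises were of inhibitors of cytokine signaling. Socs3, which restrains STAT3 signaling, had 487 and 491 and then 21080 and 20570 (5.41 ± 0.18), and Socs1 had 282 and 215 and then 2655 and 2635 (3.41 ± 0.17). Nfkbiz, a nuclear cofactor of NF-kB, had 1289 and 1146 and then 8646 and 8636 (2.83 ± 0.07). Nfkbia, the inhibitor that holds NF-kB in the cytoplasm, had 7724 and 7867 and then 25310 and 25610 (1.71 ± 0.05). The subunit Rela was not called, with 5305 and 5846 in NS and 5322 and 5326 in NBT3L TCM (DESeq2 adjusted p = 0.549), while Nfkb2 rose from 3267 and 3229 to 7082 and 6639 (1.08 ± 0.07).

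Pattern recognition receptors also rose more often than not, with 17 of 25 higher and 7 lower and a median of 0.84. Fpr1, a receptor of formylated bacterial peptides, had 1412 and 1606 and then 27200 and 27600 (4.18 ± 0.08). Clec4e, the receptor Mincle, which signals through Syk, had 9756 and 9905 and then 122700 and 127000 (3.67 ± 0.06). Marco, a scavenger receptor for bacteria and particles, had 56470 and 57480 and then 644100 and 624600 (3.48 ± 0.05). By contrast, the Toll-like receptors Tlr4 (4678 and 4257, then 2192 and 2454), Tlr3 (1095 and 855, then 512 and 541) and Tlr5 (232 and 226, then 24.8 and 56.3) fell, with log2 fold changes of -0.94 ± 0.11, -0.89 ± 0.23 and -2.49 ± 0.44.

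Acute phase and antimicrobial genes had the highest median of the 35 lists, 3.26, with 12 of 18 higher and 2 lower. Saa3, serum amyloid A3, had 17340 and 20850 in NS and 1421000 and 1356000 in NBT3L TCM (6.18 ± 0.15). Lcn2 (lipocalin 2), which binds bacterial iron carriers, had 1164 and 1231 and then 94760 and 94620 (6.31 ± 0.07). Hp, haptoglobin, had 516 and 510.1 and then 19220 and 18920 (5.22 ± 0.08). Both NBT3L TCM libraries of these genes were more than 30 times above either NS library. Ltf, lactoferrin of neutrophil granules, fell from 1510 and 1520 to 449 and 362 (-1.90 ± 0.16). S100a8 rose (1161 and 1369, then 8055 and 7901, 2.66 ± 0.29) and its partner S100a9 was lower (2368 and 2596, then 1922 and 1937, -0.36 ± 0.14), a call that was lost without SJ2, SJ5 or SJ6 (DESeq2 adjusted p = 0.192, 0.116 and 0.101). Neutrophil markers were divided, with 2 of 9 tested markers higher and 5 lower (3 lower without SJ1, SJ2, SJ5 or SJ6). Ngp, a neutrophil granule protein, fell from 1691 and 1687 to 556 and 504 (-1.67 ± 0.13). The summed level of the 10 markers was 827 and 819 TPM in NS and 1486 and 1480 TPM in NBT3L TCM, carried by S100a8 and Mmp8. The granule protein genes Mpo and Elane had 47 to 92 counts in NS and 0 to 6 in NBT3L TCM. Ly6g had 0 to 4 counts in the 4 libraries. The part of neutrophil precursors in these values was not tested.

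Arginine, nitric oxide and itaconate genes followed with a median of 2.94, 8 of 11 higher and 1 lower. Nos2, the inducible nitric oxide synthase, had 67.6 and 74.9 and then 2035 and 2079 (4.85 ± 0.18). Arg1, arginase 1, which uses the same substrate and is often read as the opposite state, had 125 and 148 and then 996 and 1092 (2.94 ± 0.22). Both enzymes rose, as did the arginine transporter Slc7a2 (82.7 and 98.6, then 3827 and 4265, 5.48 ± 0.16). Slc13a3, a dicarboxylate transporter, had 967 and 967 and then 48200 and 46440 (5.61 ± 0.06). Acod1, the enzyme that makes itaconate, had 11570 and 10960 and then 178000 and 182100 (4.0 ± 0.05). Slc7a1, another arginine transporter, fell from 4100 and 3612 to 2723 and 2653 (-0.52 ± 0.10).

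Of 16 prostaglandin and leukotriene genes, most of them of enzymes, 5 were higher and 7 lower (median -0.10). The inducible prostaglandin E2 enzymes rose: Ptgs2 had 41.3 and 76.8 and then 2262 and 1967 (5.16 ± 0.23), and Ptges had 406 and 409 and then 19130 and 18350 (5.52 ± 0.08). Hpgd, which degrades prostaglandins, had 136 and 129 and then 4.95 and 6.49 (-4.53 ± 0.69). Ptgs1, the constitutive cyclooxygenase, fell from 1571 and 1489 to 473 and 349.5 (-1.90 ± 0.22), and Alox5, the first enzyme of leukotriene synthesis, from 2294 and 2160 to 732 and 874 (-1.47 ± 0.13).

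Interferon-stimulated genes fell more often than they rose. Of 30, 1 was higher and 17 lower, with a median of -0.40. Irf7, an interferon regulatory factor, had 25060 and 25320 and then 11610 and 11320 (-1.14 ± 0.06). Ifit2, an RNA-binding antiviral protein, had 7291 and 6753 and then 2282 and 2254 (-1.63 ± 0.14). Oasl2 fell from 18700 and 18600 to 8721 and 8511 (-1.11 ± 0.07), and Ifi44 from 929.8 and 952 to 58.2 and 176 (-3.00 ± 0.50). Isg15 (5128 and 5633, then 5056 and 5364) was not called (DESeq2 adjusted p = 0.812). The single rise, Gbp2 (1250 and 1498, then 1797 and 2032, 0.48 ± 0.19), was not called by edgeR (adjusted p = 0.0555) nor without SJ1, SJ5 or SJ6. Ifnb1, the gene of interferon beta, was below the count filter, with 0 counts in NS and 8 and 10 in NBT3L TCM.

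Among 14 MHC class I genes, 9 were lower and 0 higher by DESeq2 (10 and 0 by edgeR, 10 and 1 at an unadjusted p under 0.05), with a median of -0.37. H2-Q4 fell from 2903 and 2970 to 835 and 714 (-1.92 ± 0.13) and H2-T23 from 11620 and 12040 to 7062 and 7831 (-0.67 ± 0.09). Without library SJ2, 5 class I genes were lower. Of 10 class II genes, 1 was higher and 3 lower, beside 18.0% and 17.3% of all genes tested. The class II members did not share a direction: H2-Ab1 rose from 764 and 903 to 1970 and 2158 (1.31 ± 0.14), whereas Cd74, the invariant chain, fell from 4720 and 4604 to 3780 and 3642 (-0.33 ± 0.09). Of 14 costimulatory and checkpoint ligands and receptors, 6 were higher and 4 lower by DESeq2 (5 and 4 by edgeR). Cd274, which encodes PD-L1, the ligand of the T cell checkpoint PD-1, had 1657 and 1627 and then 9523 and 9400 (2.53 ± 0.07), and Cd40 had 830.2 and 782 and then 1740 and 1778 (1.13 ± 0.13). Havcr2, encoding TIM-3, fell from 3326 and 2753 to 811 and 775 (-1.94 ± 0.14), and Cd83 from 495 and 554 to 166 and 172 (-1.63 ± 0.24). Cd86 was not called, with 479 and 601 in NS and 691 and 499.9 in NBT3L TCM (DESeq2 adjusted p = 0.703).

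Genes of cell division fell. All 22 mitosis genes were lower, each at least 2-fold, with a median of -2.02. Cenpf, a kinetochore protein, had 3088 and 2833 and then 450.5 and 419.8 (-2.77 ± 0.16). Plk1, a mitotic kinase, had 4427 and 4548 and then 729 and 855 (-2.50 ± 0.11), and Mki67, a marker of dividing cells, had 22480 and 21050 and then 6250 and 6526 (-1.77 ± 0.09). Of 25 DNA replication genes, 23 were lower and 1 higher, with a median of -0.72. Tk1, thymidine kinase, fell from 7750 and 7883 to 2861 and 2835 (-1.46 ± 0.08), and Rrm1, a ribonucleotide reductase subunit, from 16650 and 16180 to 7086 and 7505 (-1.17 ± 0.07). The exception was the transcription factor E2f1, at 3577 and 3720 and then 4504 and 4793 (0.35 ± 0.08). The drop in mitosis genes was therefore about 4-fold at the median.

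Genes of glycolysis and HIF1A targets rose in 26 of 30 cases and fell in 1, with a median of 1.03. Pfkfb3, which makes the activator of phosphofructokinase, had 2218 and 2038 and then 16180 and 15790 (2.91 ± 0.06). The glucose transporter Slc2a1 had 7561 and 7322 and then 19000 and 18490 (1.33 ± 0.05), and Ldha, lactate dehydrogenase A, had 68700 and 72070 and then 145500 and 141600 (1.03 ± 0.05). Hif1a itself rose from 5877 and 5620 to 14560 and 16000 (1.41 ± 0.07). Among respiratory chain genes, 12 of 25 were higher and 0 lower by DESeq2 (11 and 0 by edgeR, 15 and 1 at an unadjusted p under 0.05), with a median of 0.23, and 7 were higher without library SJ1. Their summed level was lower, at 6033 and 6275 TPM in NS and 5564 and 5431 TPM in NBT3L TCM. The direction of this small change thus depended on the scale. Cycs, cytochrome c, had 3450 and 3963 and then 6026 and 5792 (0.67 ± 0.11). Genes of endoplasmic reticulum chaperones and of the unfolded protein response rose in 17 of 18 cases, with a median of 0.87. Hyou1 had 9051 and 8691 and then 25820 and 25540 (1.53 ± 0.05), and Manf had 5579 and 6452 and then 16700 and 16070 (1.45 ± 0.08). Beside 17.3% lower and 18.0% higher over all genes tested, 5 of 20 ribosomal protein genes were lower and 0 higher by DESeq2 and edgeR alike. At an unadjusted p under 0.05, 6 of them were lower and 1 higher, and their median was -0.03. Without SJ2, 1 was lower and 1 higher, without SJ5 2 were lower, without SJ6 3 were lower, and the median turned to 0.04 without SJ2.

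Lipid genes fell more often than they rose. Of 23 sterol synthesis and uptake genes, 15 were lower and 1 higher (median -0.36), with Idi1 at 1490 and 1287 and then 689 and 643 (-1.06 ± 0.18). Of 17 fatty acid synthesis and LXR target genes, 9 were lower and 2 higher (median -0.26). Pltp, a phospholipid transfer protein, had 5851 and 6035 and then 1738 and 1568 (-1.85 ± 0.09), and the cholesterol exporter Abcg1 had 2251 and 2381 and then 732 and 679.5 (-1.72 ± 0.12), while the exporter Abca1 rose from 3627 and 3314 to 4668 and 5105 (0.49 ± 0.12). Of 22 genes of amino acid shortage, many of them targets of ATF4, 11 were lower and 4 higher (median -0.36). The median was -0.22 without SJ5 and -0.20 with shrunken fold changes. Chac1, which degrades glutathione, had 299.6 and 266 and then 9.90 and 17.3 (-4.36 ± 0.39), and Trib3 had 789.9 and 750.0 and then 252 and 235 (-1.66 ± 0.16). The cystine transporter Slc7a11, which NRF2 also drives, went against the list, at 1336 and 1422 and then 32080 and 31250 (4.52 ± 0.09). Of 8 glucocorticoid-responsive genes, 4 were lower and 0 higher by DESeq2 and edgeR alike (5 and 2 at an unadjusted p under 0.05). Tsc22d3, a glucocorticoid-induced leucine zipper protein, had 3245 and 3330 and then 929.5 and 1007 (-1.76 ± 0.09), and Fkbp5 had 2390 and 2420 and then 1356 and 1357 (-0.83 ± 0.10).

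**Figure D3:**
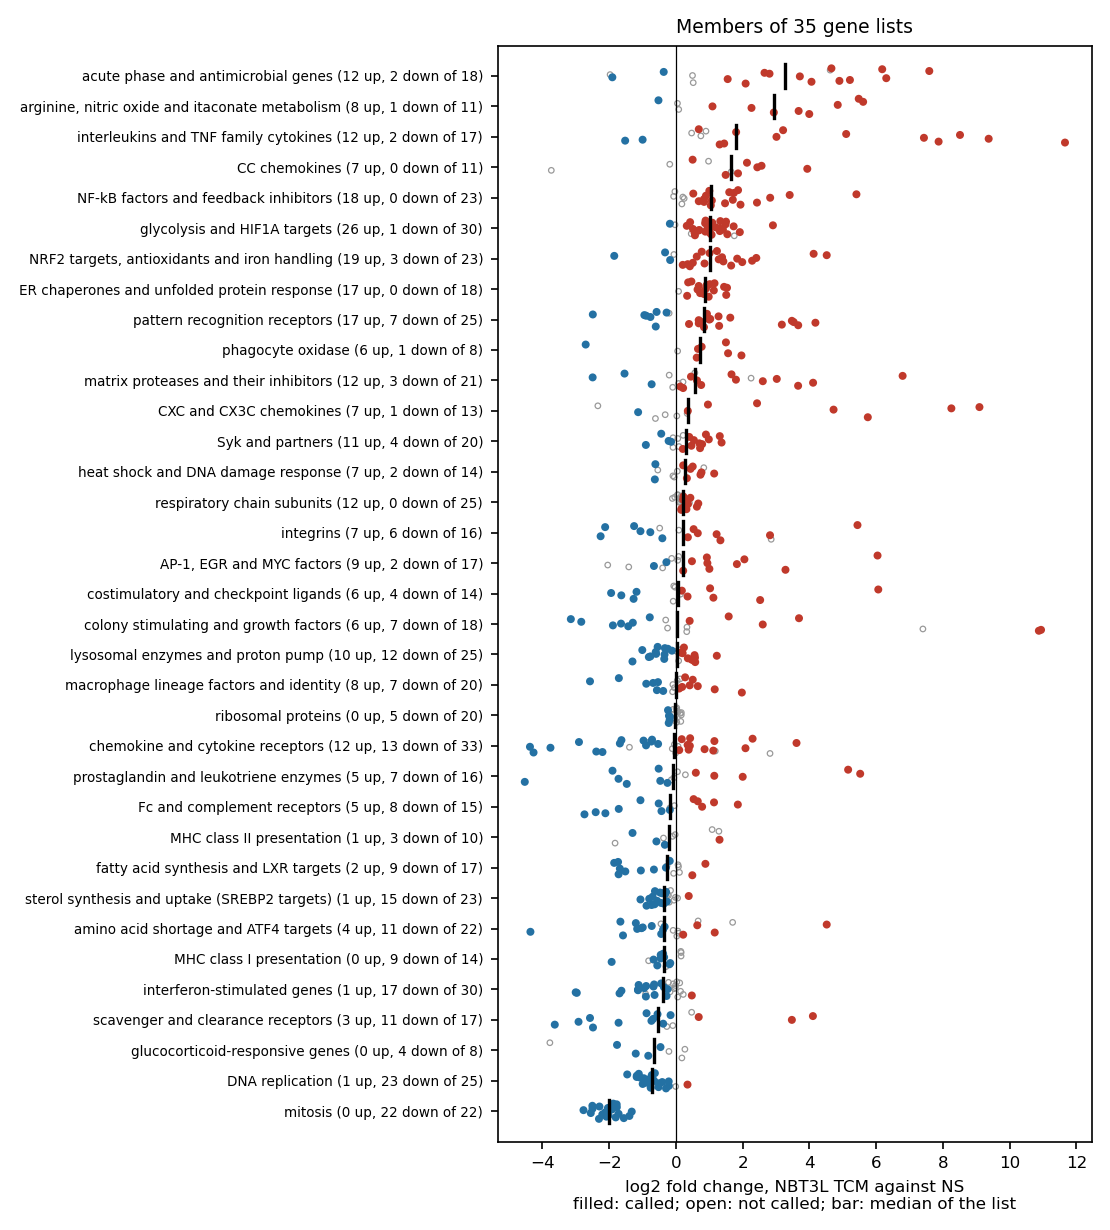
Log2 fold changes of NBT3L TCM against NS for the tested members of 35 gene lists, ordered by their median (black bar), with called members filled (red higher, blue lower) and others open. The acute phase list has the highest median, 3.26, and the mitosis list, all 22 members lower, the lowest, -2.02.

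Macrophage lineage and identity genes moved both ways, with 8 of 20 higher and 7 lower. Adgre1, which encodes F4/80, had 75340 and 72140 and then 291000 and 290100 (1.98 ± 0.04). Mrc1, the mannose receptor CD206, had 28260 and 26070 and then 4716 and 4424 (-2.57 ± 0.08), and Trem2 had 30910 and 34060 and then 10170 and 9726 (-1.71 ± 0.07). Of 17 scavenger and clearance receptors, 11 were lower and 3 higher (median -0.55). Gas6, a bridge between dying cells and phagocytes, fell from 12060 and 12210 to 1694 and 1525 (-2.92 ± 0.08), while Marco rose. Of 15 Fc and complement genes, 5 were higher and 8 lower, and 5 were lower without SJ2 or without SJ5. The 3 chains of complement C1q fell together, with C1qa at 12690 and 13920 and then 2202 and 1791 (-2.74 ± 0.10), C1qb at -2.11 ± 0.07 and C1qc at -2.40 ± 0.10 on the log2 scale. The inhibitory receptor Fcgr2b rose from 3378 and 3233 to 12170 and 11790 (1.86 ± 0.07). Of 25 lysosomal genes, 10 were higher and 12 lower, among them Ctsz (51630 and 54370, then 125900 and 122400, 1.23 ± 0.06) and Lipa (58870 and 58080, then 28550 and 29720, -1.0 ± 0.05).

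Syk was higher, at 15430 and 14550 and then 37100 and 37580, and of the 20 genes of Syk and its partners 11 were higher and 4 lower, with 10 higher and 2 lower without SJ5. Fcer1g, the Fc receptor gamma chain, had 38490 and 41290 and then 69620 and 68100 (0.79 ± 0.14). Cblb, a ubiquitin ligase that limits Syk signaling, fell from 2628 and 2514 to 1281 and 1476 (-0.90 ± 0.12). Of 8 phagocyte oxidase genes, 6 were higher and 1 lower. Cybb, the catalytic subunit, had 48720 and 45340 and then 179200 and 188300 (1.97 ± 0.05).

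Of 21 matrix proteases and inhibitors, 12 were higher and 3 lower (median 0.57). Mmp14, a membrane-bound matrix metalloproteinase, had 2596 and 2615 and then 44620 and 45520 (4.11 ± 0.05), and Mmp9 had 1157 and 1071 and then 9253 and 8883 (3.02 ± 0.08). Serpinb2, an inhibitor of plasminogen activators, had 121 and 58.8 and then 9650 and 10350, whereas Plau, the urokinase activator, fell from 11750 and 10980 to 2009 and 2030 (-2.49 ± 0.10). Of 16 integrins, 7 were higher and 6 lower. Itga9 rose from 203 and 160.2 to 1267 and 1301 (2.82 ± 0.15), and Itga6 fell from 13850 and 13110 to 2765 and 2888 (-2.25 ± 0.09).

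Antioxidant and iron genes rose in 19 of 23 cases and fell in 3, with a median of 1.01. Sod2 had 5317 and 5642 and then 95830 and 95950 (4.13 ± 0.07). Hmox1, which breaks down heme, had 37940 and 38390 and then 183800 and 188500 (2.29 ± 0.04). Fth1, the ferritin heavy chain that stores iron, had 590000 and 622300 and then 1919000 and 1906000 (1.66 ± 0.07), and Slc40a1, the iron exporter ferroportin, fell from 4343 and 4366 to 1155 and 1267 (-1.85 ± 0.09). Fth1 thus rose and Slc40a1 fell in both NBT3L TCM libraries. Of 17 AP-1, EGR and MYC factors, 9 were higher and 2 lower, with Batf at 287 and 242 and then 2526 and 2634 (3.29 ± 0.12). Of 14 heat shock and DNA damage genes, 7 were higher and 2 lower, with Hsp90aa1 at 18590 and 17890 and then 30490 and 31660 (0.77 ± 0.09).

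On the TPM scale, which divides by gene length and allows levels of different genes to be compared, a few genes held much of the change. Fth1 had 44080 and 45070 TPM in NS and 107600 and 106700 TPM in NBT3L TCM. Saa3 had 430.5 and 502 and then 26470 and 25230 TPM, Marco 1898 and 1873 and then 16240 and 15730 TPM, and Wfdc17, a secreted protein of the whey acidic protein family, 432 and 444 and then 5581 and 5634 TPM. Tmsb4x, which binds actin monomers, had 10370 and 11400 and then 17750 and 17930 TPM, and Prdx1, a peroxidase, 2410 and 2478 and then 6623 and 6698 TPM. Of the genes with the largest gains, Fth1 was the most abundant in both groups. Among the losses, Spp1 had 5314 and 5218 and then 569.7 and 556 TPM, Lgals3 (galectin 3) 4828 and 4969 and then 1499 and 1476 TPM, and the lysosomal protease Ctss 6690 and 6868 and then 3069 and 3021 TPM. Since TPM sum to a fixed total, losses on this scale are larger than in normalized counts: Eef1a1, an elongation factor, had 7417 and 7065 and then 4844 and 4967 TPM, and a log2 fold change of -0.17 ± 0.04 in normalized counts.

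**Figure D4:**
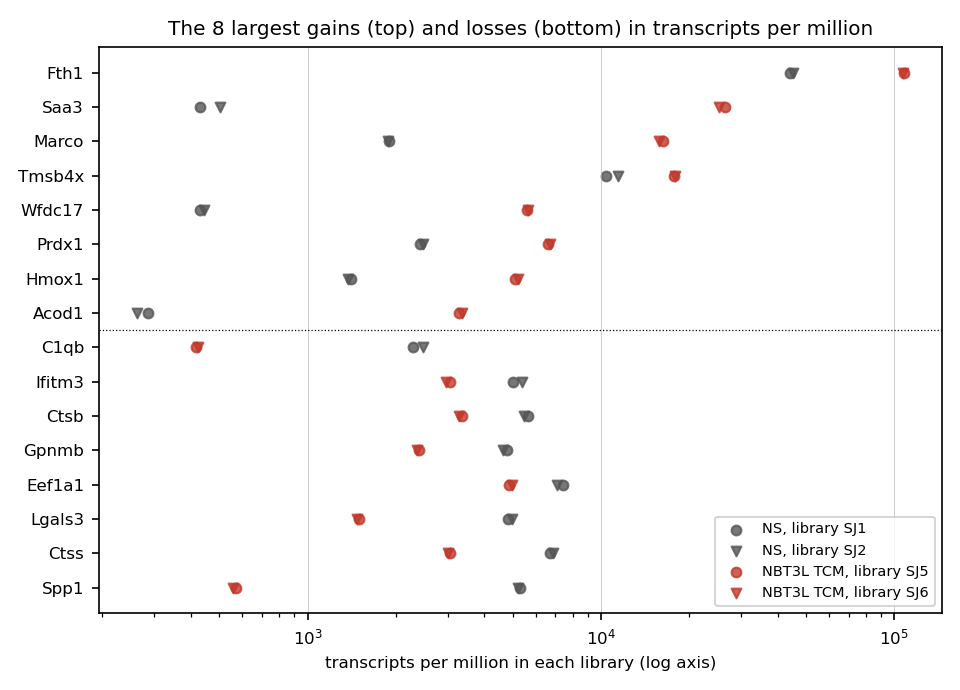
Levels in TPM on a log axis for the 8 largest gains (above the dotted line) and the 8 largest losses (below it), with a point for each library (grey for NS, red for NBT3L TCM). Fth1 lies furthest to the right in both groups, and Saa3 is the next furthest right of the 16 genes in NBT3L TCM.

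Medium of the other line, NB9464, was used to see which changes differed between media. The contrast of NBT3L TCM with NB9464 TCM called 1531 genes (9.40%), 931 higher (5.72%) and 600 lower (3.69%) in NBT3L TCM. Among the 181 genes that differed by at least 2-fold, 77 were higher and 104 lower. With edgeR 598 genes were higher and 435 lower. Leaving out SJ3, SJ5 or SJ6 left 944, 875 and 795 genes called. Both this contrast and that with NS use the NBT3L TCM libraries, so their values are given side by side and not as independent results.

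Il1b had 965 and 1123 in NB9464 TCM and 9275 and 9335 in NBT3L TCM (log2 difference 7.43 ± 0.17 from NS and 3.16 ± 0.10 from NB9464 TCM). Serpinb2 had 1505 and 1562 in NB9464 TCM and was 2.70 ± 0.33 higher in NBT3L TCM on the log2 scale. U90926 was higher by 2.22 ± 0.07, and Cav1, a protein of membrane caveolae, by 2.32 ± 0.16. Il1rn was also higher, by 2.01 ± 0.11 (DESeq2 adjusted p = 2.76e-69). The chemokine Ppbp had 257 and 259 in NB9464 TCM and 1110 and 1014 in NBT3L TCM (2.04 ± 0.24). Nptx1 was low in both media beside NS, with 499.6 and 508 in NS, 3.83 and 0 in NB9464 TCM and 22.3 and 10.8 in NBT3L TCM, and its difference between media (3.12 ± 0.92) was 6.59 without SJ3 and was not called without SJ4 or without SJ5 (DESeq2 adjusted p = 0.194 and 0.154).

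In the other direction stood genes of amino acid synthesis. Asns, asparagine synthetase, had 3041 and 2885 in NS, 4398 and 4256 in NB9464 TCM and 1025 and 954 in NBT3L TCM, so that it lay above NS in one medium and below it in the other (-2.13 ± 0.09 between media). Phgdh, the first enzyme of serine synthesis, had 1779 and 1837 and then 248 and 360.3 in these media (-2.57 ± 0.17), and Trib3 had 1120 and 1125 and then 252 and 235 (-2.21 ± 0.16). Of the 22 amino acid shortage genes, 14 were lower in NBT3L TCM than in NB9464 TCM and 2 higher, and of the 8 glucocorticoid-responsive genes 6 were lower and 0 higher by DESeq2, by edgeR and at an unadjusted p under 0.05. Scd1, an enzyme of fatty acid desaturation (-1.97 ± 0.33), Aqp9, a channel for water and glycerol (-1.90 ± 0.27), and Klhl6 (-1.97 ± 0.23) were also lower. Interferon-stimulated genes were higher in NBT3L TCM than in NB9464 TCM in 24 of 30 cases and lower in 0 by DESeq2 (23 and 0 by edgeR, 28 and 0 at an unadjusted p under 0.05), with Ifit3 at 5210 and 4887 in NS, 626 and 868 in NB9464 TCM and 2275 and 2329 in NBT3L TCM (1.62 ± 0.18 between media). Glycolysis and HIF1A target genes were higher in 20 of 30 cases and lower in 2, with small differences (median 0.33). The mitosis genes differed between media in 1 of 22 cases by DESeq2 and 0 by edgeR (3 at an unadjusted p under 0.05).

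**Figure D5:**
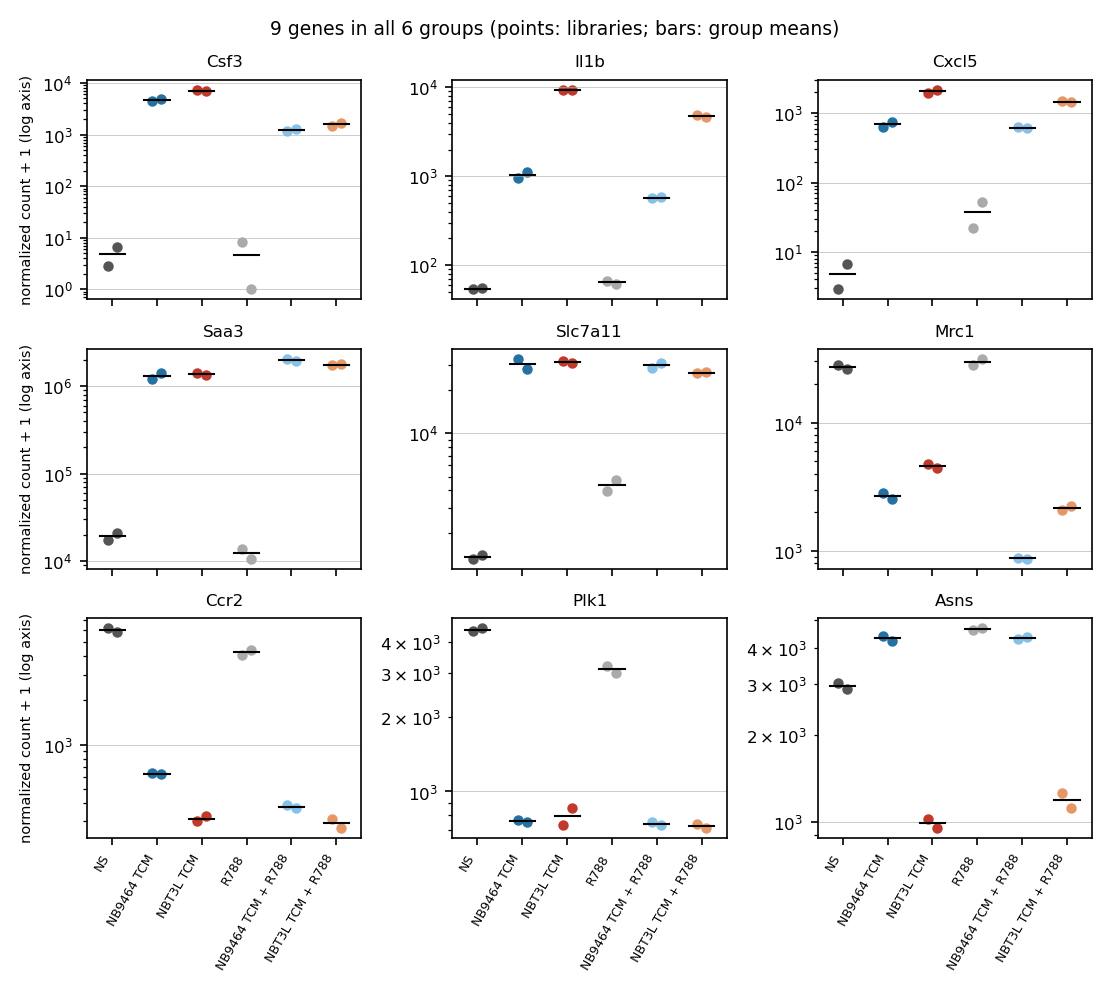
Normalized counts plus 1 of 9 genes in all 6 groups on log axes that differ between panels, with points for the 2 libraries of a group and a bar at their mean. Il1b stands higher in NBT3L TCM than in NB9464 TCM, Asns lies above NS in NB9464 TCM and below it in NBT3L TCM, and Saa3, Mrc1, Ccr2 and Plk1 separate the media from the groups without TCM with and without R788.

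The response to NBT3L TCM was measured again in 4 other libraries, all given R788. NBT3L TCM + R788 against R788 called 6740 genes (41.4%), 3500 higher (21.5%) and 3240 lower (19.9%). Of the genes called without R788, 77.9% were called with it, and these were 66.5% of the calls with R788. In 4389 of the 4485 shared calls (97.9%) the direction was the same. Of the 1957 genes changed at least 2-fold without R788, 1876 kept their sign with R788, 1598 were also called in the same direction and 9 were called in the opposite direction. Saa3 had 13740 and 10660 in R788 and 1732000 and 1804000 in NBT3L TCM + R788 (7.18 ± 0.15). Mrc1 had 27830 and 31160 and then 2095 and 2225 (-3.77 ± 0.08), and Ccr2 had 4094 and 4375 and then 311 and 271 (-3.86 ± 0.12). These values separated the groups in the same direction as without R788. All 22 mitosis genes were lower in both settings, with medians of -2.02 without and -1.68 with R788. Leaving out SJ8 left 5806 calls.

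Whether R788 changed the size of the response was tested by the interaction, the log2 response to NBT3L TCM with R788 minus that without it. It called 1649 genes (10.1%), 842 positive (5.17%) and 807 negative (4.96%). The R788 libraries that enter it differed more between replicates than those of any other group. Cxcl5 had 20.9 and 51.9 in R788 and 1493 and 1439 in NBT3L TCM + R788, an interaction of -3.79 ± 0.59, and Serpinb2 had 92.7 and 60.7 and then 1390 and 1505 (-2.55 ± 0.49). In both genes the NBT3L TCM + R788 libraries were lower than the NBT3L TCM libraries, and for Cxcl5 the R788 libraries were also higher than the NS libraries (1.88 and 5.69). Csf3 had 7.27 and 0 in R788 and 1460 and 1674 in NBT3L TCM + R788. Its interaction of -2.03 ± 0.74 was called by DESeq2 (adjusted p = 0.0454) and not by edgeR (adjusted p = 0.266). By DESeq2 it turned to 2.50 without SJ7 and was also not called without SJ1, SJ2, SJ5, SJ6 or SJ11. Gab1, an adaptor of growth factor receptors, rose without R788 (378 and 414, then 1014 and 986) and fell with it (1817 and 1559, then 727 and 911), an interaction of -2.38 ± 0.26. Cd207 (langerin) had 408 and 345 in NS, 39.6 and 49.8 in NBT3L TCM, 70.9 and 114 in R788 and 2.12 and 0 with both, an interaction of -3.41 ± 1.20 that was called with a DESeq2 adjusted p of 0.037 and lost without SJ1, SJ2, SJ5, SJ6, SJ8, SJ11 or SJ12.

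Positive interactions were found for Vegfc, a growth factor of lymphatic vessels, with 95.8 and 107 in NS, 276 and 332 in NBT3L TCM, 0 and 7.98 in R788 and 110.3 and 159.8 in NBT3L TCM + R788 (3.43 ± 0.72), and for Kcnk12, a potassium channel, with 452 and 393 in NS, 94.1 and 83.3 in NBT3L TCM, 141 and 67.9 in R788 and 142 and 182 with both (2.89 ± 0.59). The Vegfc interaction was 8.07 without SJ8 and 2.49 without SJ7. Nptx1 had an interaction of 3.60 ± 0.97, which was not called without SJ2 (DESeq2 adjusted p = 0.0585). Draxin had 0 and 15.2 in NS, 1449 and 1490 in NBT3L TCM, 0 in both R788 libraries and 2292 and 2529 in NBT3L TCM + R788. Its fitted interaction of 6.31 ± 1.98 was 0.86 (DESeq2 adjusted p = 0.909) without SJ2 and was called, among the libraries left out, only without SJ1. Glycolysis and HIF1A target genes had positive interactions in 18 of 30 cases and negative ones in 0 by DESeq2 (17 and 0 by edgeR, 18 and 0 at an unadjusted p under 0.05), with a median response of 1.03 without and 1.38 with R788. Interferon-stimulated genes had negative interactions in 12 of 30 cases and positive ones in 1 (7 and 0 by edgeR), with median responses of -0.40 without and -0.79 with R788. Mitosis genes had positive interactions in 11 of 22 cases and negative ones in 0 by DESeq2 (9 and 0 by edgeR, 16 and 0 at an unadjusted p under 0.05).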

How the data were processed

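RNA of mouse BMDMs was sequenced in 12 libraries, 6 groups of 2. The authors deposited raw read counts per gene with gene lengths, on mm10 with GENCODE names. Per the labels, the submitters' notes name STAR 2.6.1d, Salmon 1.4.0, SAMtools 1.9, Picard 2.26 and MultiQC 1.11, without roles. The study's methods name STAR for alignment and Salmon for quantification. Use of strand was not given in the sources used here. Of counts between 1 and 40, 65.5% to 67.4% were even in the 4 libraries compared, so counts may hold both mates of a pair, although the methods describe single reads, and counts halved were tried. Groups were taken from the labels.

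Genes reaching 10 counts in 2 or more libraries entered 1 DESeq2 1.42.0 fit (R 4.3.3) of 6 group means with median-of-ratios size factors. Wald tests were adjusted by Benjamini-Hochberg, and genes under 0.05 were called. Fold changes were not shrunken. DESeq2 gave 316 genes no adjusted p, and these counted as not called. TPM were computed from the deposited counts and lengths. edgeR 4.0.16, TMM scaling, other count filters, a 2-fold minimum, the compared libraries alone, apeglm 1.24.0 and leaving out each library were alternatives. The DESeq2 and edgeR fits were tested on simulated data. Replicates of a group differed by more than counting noise, most of all in the R788 group. Over genes averaging 50 normalized counts or more, the standard deviation of the log2 difference between replicates was 0.469 there. It was 0.293 to 0.331 in the other groups.

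The genes, the 35 functional lists, the 7 marker lists and the naming rules were chosen with earlier results of these data known. Named genes were Syk, the 12 largest changes each way with a mean of at least 500 and the 8 largest TPM changes each way. Also named were the 3 largest changes each way per list with a mean of at least 50. With a mean of at least 200, the 6 largest differences each way between media and the 4 largest interactions each way were named. Genes named for media differences or interactions also had to be called in NBT3L TCM against NS. Genes with Gm or Rik names were left out of these choices, except those by TPM and by list. A further 22 list members were named after their values were seen: Arg1, Ccl2, Cd86, Cxcl2, Cxcl10, Hif1a, Ifit2, Ifit3, Il1rn, Il10, Il12b, Irf7, Isg15, Ldha, Mki67, Nfkb2, Nfkbia, Oasl2, Rela, S100a8, Slc2a1 and Tnf. The neutrophil marker Ngp was also named after its values were seen. Markers of fibroblasts or endothelium summed to 42.9 to 51.4 TPM.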

Additional observations from a re-analysis of the deposited data

Results flagged for a closer look

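The interaction of NBT3L TCM with R788, the test of whether the response differed with and without the inhibitor, called 1649 genes. Named among them, with their log2 interactions, were Cxcl5 (-3.79), Cd207 (-3.41), Serpinb2 (-2.55), Gab1 (-2.38), Draxin (6.31), Nptx1 (3.60), Vegfc (3.43) and Kcnk12 (2.89). Gab1 was the one among these with responses called in opposite directions, -1.04 ± 0.18 with R788 and 1.33 ± 0.18 without. With library SJ8 left out, the interactions of Cxcl5, Gab1, Kcnk12, Nptx1, Serpinb2 and Vegfc were called, and those of Cd207 and Draxin were not (DESeq2 adjusted p = 0.0931 and 0.082).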

How the results depend on the processing

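No paired analysis was run, because nothing stated which libraries of different groups came from the same mouse or culture. Requiring a 2-fold change left 1957 genes for NBT3L TCM against NS, 181 against NB9464 TCM, 2236 with R788 and 288 for the interaction. Leaving out 1 of the compared libraries at a time gave 4532 to 4838 genes against NS, 795 to 1056 against NB9464 TCM (lowest without SJ6), 5411 to 6844 with R788 and 1034 to 2585 for the interaction (lowest without SJ2, highest without SJ7). The interaction also fell by over 1.5 times without SJ6 (1063) and without SJ12 (1069). Against NS, the other alternatives gave 5504 (edgeR) to 6180 (without SJ8, chosen after seeing the data). edgeR called 1033 genes against NB9464 TCM and 1196 for the interaction. For NBT3L TCM against NS, 2408 values of 219 named genes under alternatives were compared with the main fit. Of these, 32 lost the call, and 0 reversed in direction with a call in either fit. The other 2376 were counted as unchanged. Direction was not checked where neither fit called the gene, nor the threshold with shrunken fold changes. The 14 genes with a lost call there were Cxcl14, Gbp2, H2-Aa, Ifi206, Ifi213, Klf9, Lat2, Mvd, Nfe2l2, Nox1, Pfkp, Rpl10a, Rplp0 and S100a9. With single libraries left out, Cd207, Csf3, Draxin and Nptx1 lost calls for the interaction, that of Csf3 also reversing to 2.50 without SJ7, and Nptx1 lost its call against NB9464 TCM. The cause was not tested. Without SJ1 or SJ2, 0 neuroblastoma markers were called by DESeq2, against 5 with all libraries (4 by edgeR), 2 without SJ5 and 1 without SJ6. Under a mean of 100 normalized counts, 9.40% of genes were called, and the part of depth in this share was not tested. With counts halved, 5528 genes were called against NS.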
